A study of Mus musculus with 2 samples.

Results

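The genes described here supply peptides to MHC class I molecules and load them. They are the immunoproteasome subunits Psmb8, Psmb9 and Psmb10, the peptide transporter subunits Tap1 and Tap2, the loading complex genes Tapbp, Calr and Pdia3, the trimming peptidase Erap1, and B2m, the light chain of class I. They were taken by gene symbol from the deposited annotated table, which found 10 of 10 among 21922 genes with a single symbol. Each was measured by 1 probe set, so no choice between probe sets was needed. The table places 5 of them on chromosome 17 and 5 on other chromosomes, and these groups were compared.

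Transcripts were measured in resting bone marrow-derived dendritic cells of 2 inbred strains of mice (CBA/J and C57BL/6) on Affymetrix Mouse Gene 1.0 ST arrays. Marrow of normal mice of each strain was grown in medium with a supernatant that contains GM-CSF, which yields dendritic cells mixed with other myeloid cells. Cells were harvested on day 7, and neither strain received a stimulus. Wells plated in replicate were combined after 4 h into 1 RNA sample, so each strain has 1 array. The sources used here do not give the age, sex and number of mice or the C57BL/6 substrain. Without replicates the values carry no error and no p-value. Strain cannot be told apart from animal, culture, well pool or array.

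Class I molecules show peptides from inside the cell to CD8 T cells. In cells exposed to interferon, the immunoproteasome subunits replace constitutive catalytic subunits and alter which peptides are cut. TAP carries the peptides into the endoplasmic reticulum, Erap1 trims their amino ends, and tapasin, calreticulin and ERp57 (encoded by Tapbp, Calr and Pdia3) hold the empty class I molecule until a peptide fits. Dendritic cells use this machinery for their own proteins and for captured antigen. Psmb8, Psmb9, Tap1, Tap2 and Tapbp lie within the mouse MHC on chromosome 17, for which CBA/J carries the k haplotype and C57BL/6 the b haplotype.

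Promoter windows of 300 bases, from 250 before to 50 after the gene start, were available for 9 of the 10 genes in RefSeq, build GRCm38.p6, the sequence of C57BL/6J. CBA/J alleles were not read. The upstream sequence of B2m and the stretch shared by Tap1 and Psmb9 are shown because Tap1 and B2m had the largest differences of the 10 genes. Short stretches of Erap1, Psmb8 and Calr show the motifs found there. Capitals mark the motifs named in the next paragraph, read 5′ to 3′ on the strand of the gene named.
B2m upstream, GRCm38.p6 chr2:122147437-122147686, plus strand: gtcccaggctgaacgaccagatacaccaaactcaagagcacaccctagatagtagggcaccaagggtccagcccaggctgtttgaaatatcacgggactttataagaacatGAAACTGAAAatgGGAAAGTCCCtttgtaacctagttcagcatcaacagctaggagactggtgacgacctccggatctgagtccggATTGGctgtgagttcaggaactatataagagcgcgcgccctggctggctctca
Tap1 and Psmb9 intergenic, GRCm38.p6 chr17:34187331-34187555, plus strand: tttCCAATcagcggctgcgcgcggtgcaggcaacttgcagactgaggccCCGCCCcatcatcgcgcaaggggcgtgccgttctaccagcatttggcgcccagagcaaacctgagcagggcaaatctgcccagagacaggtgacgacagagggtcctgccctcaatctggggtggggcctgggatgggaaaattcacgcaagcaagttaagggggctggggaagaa
Erap1 around the start of its window's transcript, GRCm38.p6 chr13:74639839-74639868, plus strand: ccaccttcacTTTCACTTTCggtcccgggc
Psmb8 upstream, GRCm38.p6 chr17:34198087-34198116, plus strand: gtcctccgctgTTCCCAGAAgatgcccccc
Calr upstream, GRCm38.p6 chr8:84847070-84847099, minus strand: acaacgCGTGGTCGACCCTCATTGGcccat

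Motifs were searched on both strands. The core of the interferon-stimulated response element, GAAANNGAAA, was found in B2m, from base -139 to -130 relative to the gene start, and in Erap1, and in 3.44% of all 32851 windows. The Erap1 match lies across the start that its window uses, which is 280 bases inside the gene's outer bound in RefSeq, whereas the other 8 windows begin at that bound. The gamma-activated site, TTCNNNGAA, was found in Psmb8 and in 8.3% of windows. A kappaB match lay in B2m, 3 bases downstream of the interferon element, and another in Calr, against 8.46% of windows. The endoplasmic reticulum stress element, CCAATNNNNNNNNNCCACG, was found in Calr and in 0.119% of windows, and its match there includes a CCAAT box. CCAAT boxes were found in 6 of the 9 genes and in 37.4% of windows, and the GC box GGGCGG in 6 of the 9 and in 35.7%. Psmb9 and Tap1 start 225 bases apart on opposite strands. Their windows share 275 bases, so they are not separate observations. In the shared stretch the capitals mark a CCAAT box and a GC box, and the interferon, gamma-activated, kappaB and stress motifs had no match.

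Signal was lower in CBA/J for 9 of the 10 genes, with Tap1 and B2m furthest apart and the other 8 within 1.5-fold. Differences are given on the log2 scale with the C57BL/6 value subtracted from that of CBA/J. The members had a median difference of -0.22, against 0.08 over the 11442 genes at the level rule. By that rule a gene's higher array is at or above the median of all genes on that array, 6.16 for CBA/J and 6.21 for C57BL/6. All 10 members reached it. A difference below 0 was seen in 9 members and in 38% of all genes. A difference of at least 1.5-fold toward C57BL/6 was seen in 2 members and in 2.47% of all genes. No member was 1.5-fold higher in CBA/J, against 4.46% of genes, and none reached 2-fold toward C57BL/6, against 0.795%. In a bulk sample, fewer cells that express a gene and less RNA per cell cannot be told apart.

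**Figure D1:**
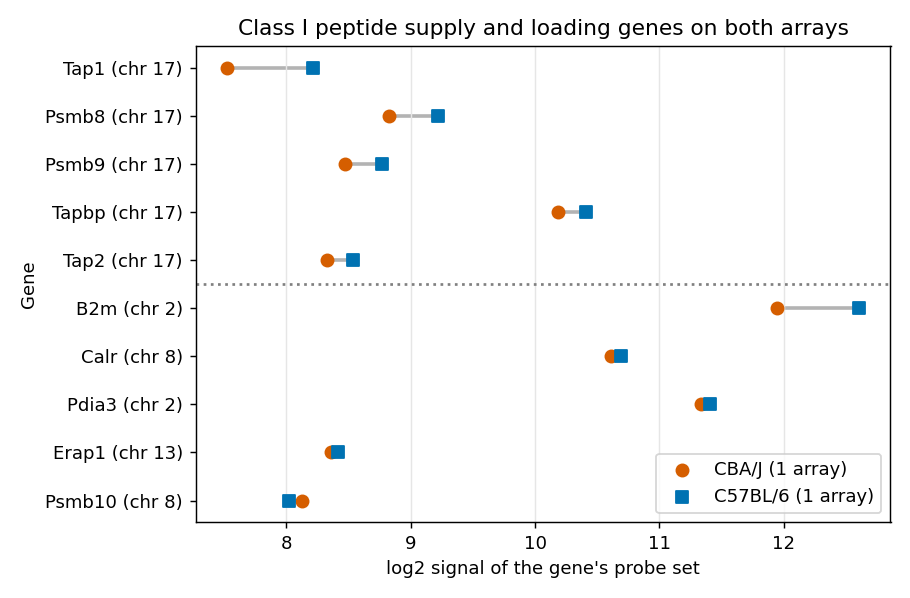
Log2 signal (x axis) of each gene's probe set on the CBA/J array (circles) and the C57BL/6 array (squares), 1 array per strain and so no error bars, with the chromosome in brackets and chromosome 17 genes above the dotted line. The circle lies left of the square for every gene but Psmb10, and the widest gaps are those of Tap1 (7.52 and 8.21) and B2m (11.94 and 12.60).

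Of the immunoproteasome subunits, Psmb8 and Psmb9 were lower in CBA/J, and Psmb10 had a small difference. Psmb10 signals were above 94.1% of the negative control probe sets on the CBA/J array and 94.3% on the C57BL/6 array. The log2 signal of Psmb8, the chymotrypsin-like subunit also called LMP7, was 8.83 on the CBA/J array and 9.22 on the C57BL/6 array. Its difference of -0.39 was the 668th lowest of the 11442 genes. Psmb9, or LMP2, was at 8.47 and 8.77, a difference of -0.30. Psmb8 was thus 1.31-fold and Psmb9 1.23-fold brighter in C57BL/6. Psmb10, or MECL-1, a gene of chromosome 8, had signals of 8.12 and 8.02, and its difference of 0.10 became -0.026 once the trend of differences with signal level was removed. The difference of Psmb8 minus that of Psmb10 was -0.50, and the same subtraction for Psmb9 gave -0.41.

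Each immunosubunit takes the place of a constitutive one, Psmb8 of Psmb5, Psmb9 of Psmb6 and Psmb10 of Psmb7. Psmb5 was at 8.05 on the CBA/J array and 8.10 on the C57BL/6 array, a difference of -0.05. Psmb6 had a difference of -0.04 and Psmb7 of 0.02. Subtracting the difference of the constitutive partner left -0.34 for Psmb8, -0.26 for Psmb9 and 0.08 for Psmb10. On these single arrays Psmb8 and Psmb9 were lower in CBA/J relative to the partners they replace, and these values carry no error. Psmb10 and Psmb5 had signals below the 95th percentile of the negative control probe sets on both arrays (8.28 for CBA/J and 8.17 for C57BL/6). The small values for Psmb10 therefore do not show that it was equal in the strains. The -0.34 for Psmb8 rests on a partner, Psmb5, with signals in that range.

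Other proteasome genes lay close to 0 on these arrays. Of 41 listed core, activator and regulatory particle genes, 40 reached the level rule, with a median difference of 0.02 and a range of -0.28 to 0.30. None was 1.5-fold apart in either direction, against 2.47% and 4.46% of all genes. The lowest of the 40 was Psmb3, a structural core subunit on chromosome 11, at -0.28, and the next was Psmb1 of chromosome 17 at -0.26. Psmg3, the listed gene below the level rule (5.82 on the CBA/J array and 6.12 on the C57BL/6 array), was at -0.30. Differences of the size of Tapbp (-0.22) and Tap2 (-0.21) were therefore also seen toward C57BL/6 in proteasome genes outside the list of members, and none of the 40 was as low as Psmb9 (-0.30). Pomp, which helps assemble the core, was at 0.27. Of the activators, Psme3 (0.21), Psme2 (-0.16) and Psme1 (-0.07) differed most. Psme1 and Psme2, subunits of the interferon-inducible PA28, were set together after their values were seen. Psmd3 (0.30), Psmc5 (0.23) and Psmd8 (-0.13) differed most in the regulatory particle.

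The transporter subunits were unequal. Tap1 was at 7.52 on the CBA/J array and 8.21 on the C57BL/6 array, a difference of -0.69, or 1.61-fold brighter in C57BL/6 and the 192nd lowest of 11442 genes. Tap2, its partner in the heterodimer, was at 8.33 and 8.54, a difference of -0.21 or 1.16-fold. The difference of Tap1 minus that of Tap2 was -0.48. Tap1 and Psmb9, which are read in opposite directions from the stretch shown above, had differences of -0.69 and -0.30. The CBA/J signal of Tap1 lay below the 95th percentile of that array's negative control probe sets, 8.28. Signals in the range of those controls can make a ratio too small.

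The loading complex and trimming genes differed little. Tapbp, which encodes tapasin, was at 10.19 on the CBA/J array and 10.41 on the C57BL/6 array, a difference of -0.22. Calr was at 10.61 and 10.69, and Pdia3 at 11.33 and 11.40, differences of -0.08 and -0.07. Erap1 was at 8.36 and 8.42, a difference of -0.06. The last 3 genes lay within 1.06-fold between the strains, and 27.7% of genes at the level rule had a difference at or below that of Calr. Erap1 and B2m both hold the interferon element core, and their differences were -0.06 and -0.66.

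Other chaperones and editors of the endoplasmic reticulum had a median difference of 0.09, close to the 0.08 of all genes at the level rule. All 12 listed reached that rule, with 9 above 0, against 61.3% of all genes, and none 1.5-fold apart. P4hb (0.36) and Pdia6 (0.34), protein disulfide isomerases related to Pdia3, and Uggt1 (0.34, under its older symbol Ugcgl1), which returns misfolded glycoproteins to the calreticulin cycle, differed most. Canx, the membrane-bound relative of Calr, had signals of 11.38 and 11.26 and was named after its value was seen. Among 7 cytosolic and endosomal peptidases the median was 0.13, with Lap3 (-0.24), Thop1 (0.20) and Tpp2 (0.20) the largest.

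B2m was the only member outside chromosome 17 that was 1.5-fold apart. It was at 11.94 on the CBA/J array and 12.60 on the C57BL/6 array, a difference of -0.66, which is 1.58-fold brighter in C57BL/6 and the 219th lowest of 11442 genes. The highest signals of any probe set were 13.90 and 13.99, so B2m lay near the upper end of both arrays. Its protein pairs with every classical class I heavy chain and is needed for them to reach the surface. Pdia3, on the same chromosome with 19 RefSeq genes between them, was at -0.07.

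The chromosome 17 members had a lower median difference than the others, with overlap. All 5 were below 0, from -0.69 to -0.21, with a median of -0.30. The 5 others ran from -0.66 to 0.10, with a median of -0.07 and 4 below 0. The chromosome 17 median minus the other median was -0.23. B2m lay among the chromosome 17 values. The other 4 ran from -0.08 to 0.10. Over all 591 chromosome 17 genes at the level rule the median was 0.05, with 243 below 0. Over the 10851 others it was 0.08, with 4107 below 0.

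**Figure D2:**
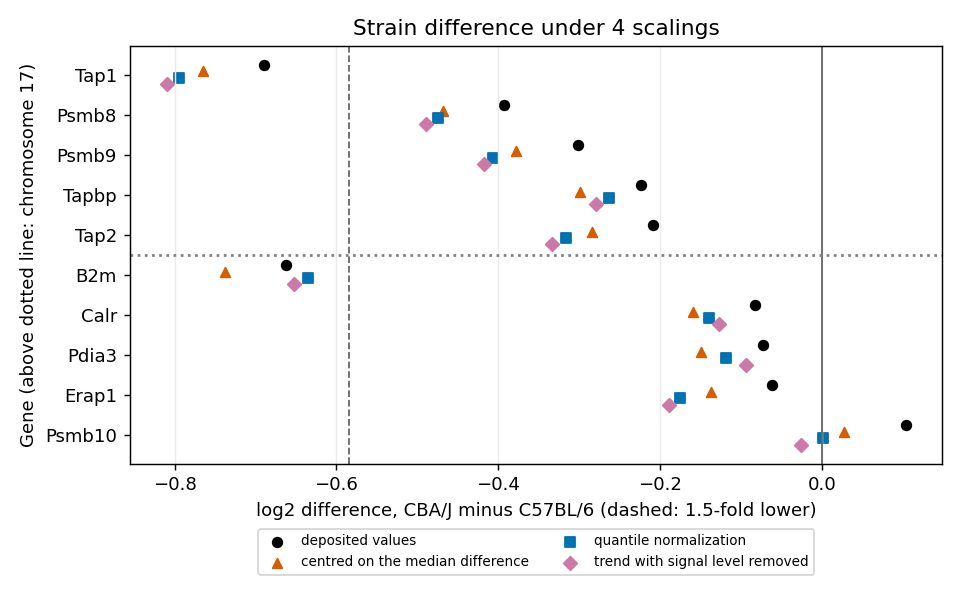
Log2 difference, CBA/J minus C57BL/6 (x axis), of each gene under the deposited values and 3 other scalings, 1 array per strain, with the dashed line at 1.5-fold lower in CBA/J and chromosome 17 genes above the dotted line. Tap1 and B2m stay left of the dashed line under all 4 scalings shown, the other 8 stay right of it, and Psmb10 crosses 0, from 0.10 to -0.026 with the trend with signal level removed.

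Neighbouring genes on chromosome 17 were above 0 about as often as all genes at the level rule. The neighbours were up to 5 measured genes on each side that reached the level rule, in RefSeq order, with genes of H2- symbols in the table or in RefSeq taken apart. The 19 neighbours had a median of 0.25, with 12 above 0 and 5 below, against 61.3% above 0 and 38% below over all genes. Wdr46 (0.47), Pbx2 (0.38) and Rps18 (0.36) were the highest, and Btnl5 (-0.77), Ager (-0.22) and Notch4 (-0.08) the lowest. Rgl2, the next RefSeq gene after Tapbp, was at 8.51 on the CBA/J array and 8.25 on the C57BL/6 array, a difference of 0.26. On the other side of Tapbp the nearest neighbour, Zbtb22, was at 0. Brd2, the nearest measured neighbour on the Psmb9 side without an H2- symbol, was at 9.66 and 9.33, a difference of 0.33. Psmb9, Tap1, Psmb8 and Tap2, which follow each other with no other RefSeq gene between, were all below 0.

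The 12 H2- genes passed on the way had a median of -0.25, with 8 below 0, against 38% of all genes. They ran from -1.28 (H2-Ab1) to 6.46 (H2-Ea, 11.18 on the CBA/J array and 4.72 on the C57BL/6 array), both beyond Tap2. Among them is EG630499 (-0.24) in the deposited table and H2-K2, a transcribed pseudogene, in RefSeq. They include class II genes on either side of the 4 adjacent members, H2-DMb2 at 0.37 before them and H2-Ob at -0.59 after. H2-K1, a class I heavy chain gene between Tapbp and Psmb9, was at -0.92. The 48 neighbours of the members on other chromosomes had a median of 0.18, with 34 above 0 and 12 below, beside the same shares over all genes. The lowest were AA467197 (-1.30), Ell2 (-0.52) and EG544954 (-0.34), and the highest Gatm (2.32), Dpep3 (0.80) and Dnase2a (0.54). Around B2m the 10 neighbours had a median of 0.16. The ends of their range were AA467197 (-1.30) and Gatm (2.32), which lie 24 and 22 RefSeq genes away. The rest ran from -0.14 to 0.32, all above the -0.66 of B2m. With no level filter the neighbour medians were smaller, 0.011 on chromosome 17 and 0.033 elsewhere. With 10 neighbours on each side they were 0.12 and 0.19.

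**Figure D3:**
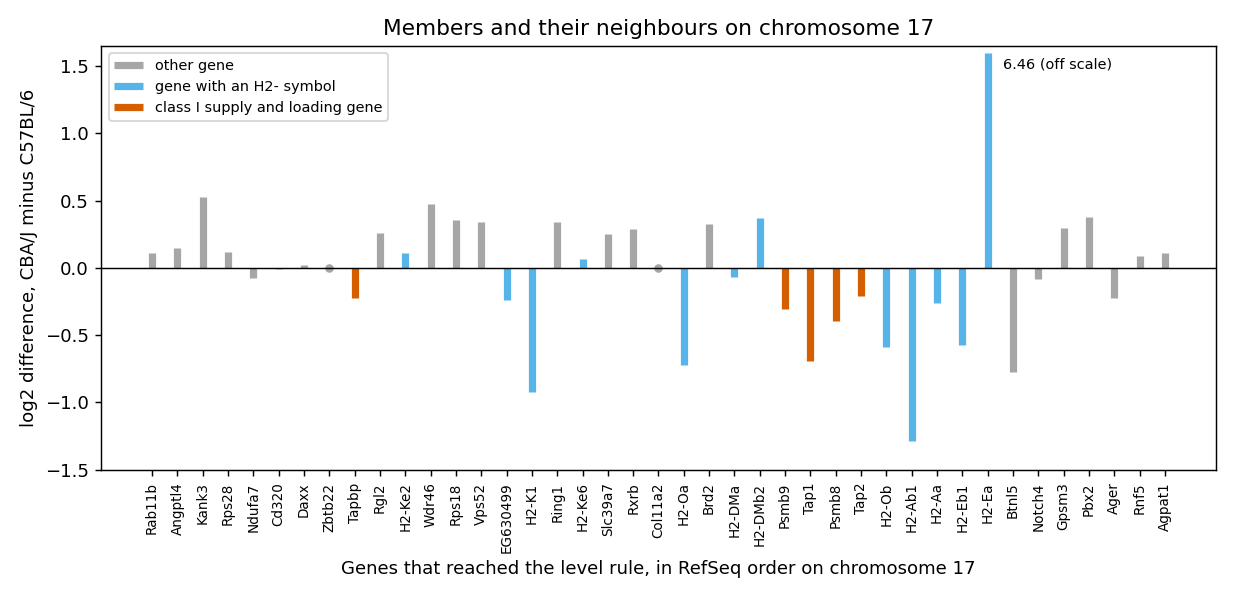
Log2 difference, CBA/J minus C57BL/6 (y axis, 1 array per strain), of genes that reached the level rule, in RefSeq order along chromosome 17 from the Tapbp neighbourhood to beyond Tap2, evenly spaced and not to genomic distance, with dots for genes at exactly 0 and H2-Ea (6.46) running off the scale. Psmb9, Tap1, Psmb8 and Tap2 stand side by side below 0, and Tapbp is below 0 between Zbtb22 at 0 and Rgl2 at 0.26.

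Transcription factors of the pathway did not share 1 direction. All 13 listed reached the level rule, with a median of 0.10, 7 above 0 and 6 below. Irf1, an interferon-induced activator of Tap1, Psmb9 and B2m, was at 8.45 on the CBA/J array and 7.81 on the C57BL/6 array. Its difference was 0.64, and its part in the differences of the 3 genes was not tested. Rfxank, a subunit of the RFX complex that binds class I and class II promoters, was at -0.51 and Irf2, a relative of Irf1, at 0.34. Nlrc5, the class I transactivator, was named after its value was seen. It was at 6.57 on the CBA/J array and 6.88 on the C57BL/6 array, a difference of -0.30. Nlrc5 and Rfxank lay below the 95th percentile of the negative control probe sets on both arrays. Among 9 translocon and retrotranslocation genes used in cross-presentation the median was 0.10. Cybb, a subunit of the phagocyte oxidase that keeps dendritic cell phagosomes from acidifying, was at 12.20 and 11.20, a difference of 1.00, and Sec61g (0.21) and Syvn1 (0.16) came next. Over the 8 lists, 81 of 82 genes reached the level rule, with 35 below 0 and 46 above, against 38% and 61.3% of all genes. None was 1.5-fold lower in CBA/J (2.47% of all genes) and 2, Irf1 and Cybb, were 1.5-fold higher (4.46%).

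**Figure D4:**
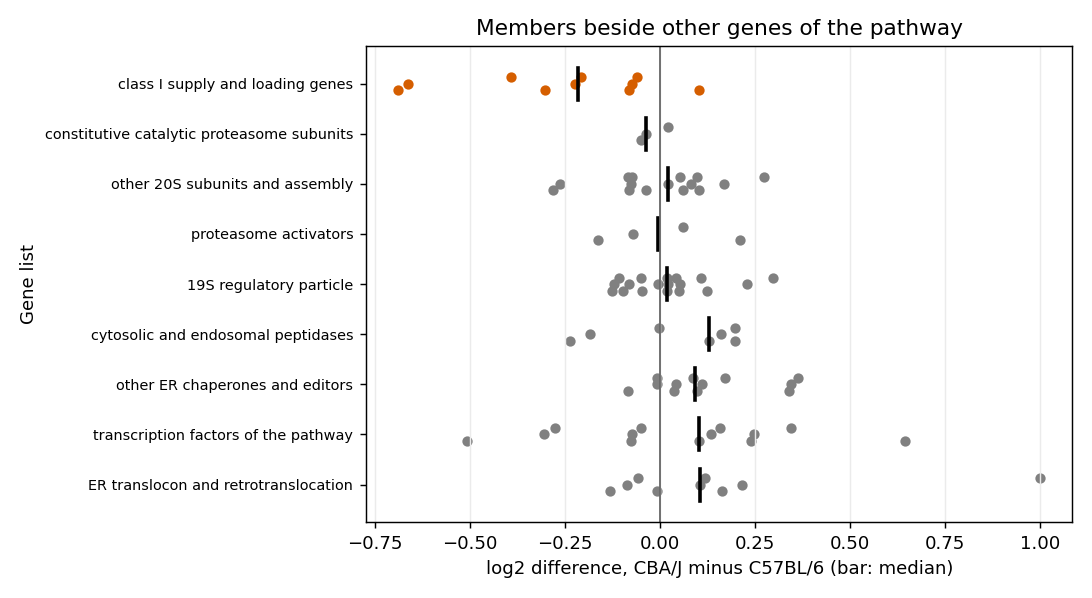
Log2 difference, CBA/J minus C57BL/6 (x axis, 1 array per strain), of the 10 class I supply and loading genes and of 8 other lists of the pathway, each point 1 gene at the level rule and each bar the list's median. The members' median of -0.22 lies left of the other medians, which run from -0.04 (constitutive catalytic subunits) to 0.13 (peptidases).

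Markers of cell type and state also differed between the arrays. Markers of mature dendritic cells had a mean log2 signal of 8.39 on the CBA/J array and 9.06 on the C57BL/6 array over 7 genes. Of these Ccl22 (-1.81), Ccr7 (-1.35) and Cd83 (-1.33) were at least 2-fold lower in CBA/J, against 0.795% of all genes at the level rule. Cd40 (0.03) and Cd86 (0.08) were nearly equal. All 6 macrophage markers were higher in CBA/J, against 61.3% of all genes. Their mean signals were 10.14 on the CBA/J array and 9.47 on the C57BL/6 array, with differences from 0.18 to 1.09. Of 6 neutrophil markers 4 reached the level rule, and those 4 were higher in CBA/J by 1.27 to 2.56. The 2.56 was that of Ly6g (7.53 on the CBA/J array and 4.96 on the C57BL/6 array), which reached the rule through the CBA/J array alone. The 2 markers below the rule, Camp and Ltf, had differences of 0.09 and 0.75. Interferon response genes, 9 of 12 at the level rule, ran from -0.44 (Cxcl10) to 1.47 (Ifi44) with a median of 0.17. Of the 9, 6 were above 0, close to the 61.3% of all genes. Ifi44 (7.31 on the CBA/J array and 5.84 on the C57BL/6 array) reached the rule through the CBA/J array alone. The part of these cell types and states in the differences of the members was not tested.

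The dendritic cell label was borne out in part by its markers. Itgax (10.50 on the CBA/J array and 10.63 on the C57BL/6 array) and Cd74 (12.02 and 12.33) were bright, Zbtb46 was at 6.77 and 7.03, and Flt3 was below the level rule at 5.67 and 5.65. Of the 8 markers 7 reached that rule, 5 of them lower in CBA/J and 2 higher, against 38% and 61.3% of all genes. Batf3 (-0.37) and Irf4 (-0.23) were among the lower, and Ciita (0.92) and Dpp4 (1.05) were both over 1.5-fold higher in CBA/J. None of the 4 B cell or 5 T cell markers reached the level rule on either array. Of the 5 mast cell and basophil markers Cpa3 (5.04 and 7.61) and Kit (6.18 and 6.56) reached it, and of the 4 plasmacytoid markers Bst2 (7.93 and 8.69) and Tcf4 (7.52 and 7.72). No replicate arrays give a measure of noise, so control probe sets are set beside the members, not matched to them by signal level. Whether the differences of these controls hold array noise alone was not tested. Of 1845 negative controls at the level rule 5.37% were at least 1.5-fold lower in CBA/J and 20.1% at least 1.5-fold higher, with a median difference of 0.22. Of 1167 positive controls 2.66% were lower and 4.46% higher by that fold, with a median of 0.08. A 1.5-fold difference of a single gene, such as that of Tap1 or B2m, is of a size also found in these controls.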

How the data were processed

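The authors deposited log2 signal per probe set. The submitters' processing notes name Affymetrix Expression Console 1.1, and the methods used to summarize and normalize are not given in the sources used here. After sorting, the 2 columns of signals were never more than 0.16 apart, so a difference shared by most genes may have been removed. The deposited table also holds the authors' log2 difference and linear ratio, per the file headers. Only the array columns were used, and they equalled the series matrix. Array probes are designed on the C57BL/6 reference, and their match to CBA/J was not tested.

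Genes with several probe sets were represented by the brightest. The 112 probe sets with several symbols were left out, and 25 symbols turned into dates were restored by accession. Of 21922 genes 20493 matched RefSeq, which gave gene order and names. In 3 of 82 pathway genes the brightest probe set lay on another chromosome than the RefSeq gene (Psma3, Psma5 and Adrm1). The 10 members matched on chromosome.

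The members, lists, fold of 1.5 and naming rule were chosen with earlier results of these data known. The rule named all members, the 3 largest differences of each pathway list, the 3 highest and 3 lowest neighbours, and the 3 genes nearest B2m and Tap1 in both signals. Canx and Nlrc5, named outside it, are marked where they appear. Psmg3, Rgl2, Brd2, the H2- genes and the neighbours with equal values are also outside it. The rule did not cover the cell type markers. Alternatives were quantile normalization, centring, removal of a lowess trend, other probe set, filter and neighbour choices, and leaving out each member. A value that moved by over 0.1 was counted as moved. The calculations were tested on simulated data. Python 3.11.15, numpy 2.4.6, pandas 2.3.3 and statsmodels 0.14.6 were used. The number of arrays limits the precision.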

Additional observations from a re-analysis of the deposited data

How the results depend on the processing

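The median over the members ran from -0.31 to -0.22, and the chromosome 17 minus other median from -0.29 to -0.21, over the scalings, probe set rule and mean in place of median. Leaving out each member in turn gave -0.22 to -0.21 and -0.27 to -0.19. Tap1 and B2m were the members past 1.5-fold under every scaling tried. At 2-fold the count was 0, and with any difference below 0 it was 9. Psmb10 became -0.026 with the trend with signal level removed, and that setting turned the translocon list median to -0.019. The regulatory particle median fell from 0.02 to -0.087 with the trend removed, -0.070 after quantile normalization and -0.058 after centring. The median of the other 20S subunits fell from 0.02 to -0.030, -0.055 and -0.054 under the same settings. The chaperone median of 0.09 became 0.015 after centring. The chromosome 17 neighbour median of 0.25 became 0.15 after quantile normalization, 0.12 with the trend removed, 0.12 with 10 neighbours on each side and 0.011 with no level filter, where the other neighbours were at 0.033. The cause of these shifts was not tested. Each member has 1 probe set, so the probe set rule could not move it. No paired analysis was possible because each strain has 1 array. Signals below the 95th percentile of the negative controls limit Psmb10 and Psmb5 on both arrays and Tap1 on the CBA/J array. Other named genes were dimmer on both arrays, so their differences are no firmer. Among them are Rfxank (6.73 on the CBA/J array and 7.23 on the C57BL/6 array), Nlrc5 (6.57 and 6.88) and Btnl5 (5.87 and 6.65).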

Other observations

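The genes whose signals on both arrays lay nearest those of B2m were Gpnmb (12.04 on the CBA/J array and 12.47 on the C57BL/6 array), Cd74 (12.02 and 12.33) and Btg1 (12.05 and 12.28). Nearest Tap1 were Fbxo21 (7.58 and 8.15), Rpl26 (7.62 and 8.22) and Mgst2 (7.43 and 8.19). Nearness over 2 arrays is a description of these values alone. Of the genes at the level rule 83 had exactly equal values on both arrays, among them the neighbours Zbtb22, Col11a2, Trp53bp1 and Eif3j, and no member did.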
